A study of Mus musculus with 4 samples.

Results

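The 31 genes described here encode enzymes and regulators of cholesterol and fatty acid synthesis. They were taken by gene symbol from the 23285 genes with values in each library for their known roles; the list was drawn up with earlier results of these data known. They fall into 4 role groups: 7 genes of the mevalonate and isoprenoid steps, 10 genes that lead from squalene to cholesterol, 6 genes for regulators and sterol transport, and 8 genes of fatty acid synthesis and desaturation. The question was whether their RNA levels differed between Gata3(g/g) and wild type (WT) thymocytes at the DN3 stage, a CD4-, CD8-, CD25+ step of thymocyte development at which the T cell receptor beta locus is rearranged. GATA3 is a transcription factor required for T cell development, and the labels call the Gata3(g/g) genotype hypomorphic.

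Fetal liver cells of either genotype were transferred into irradiated recipient mice, and DN3 cells were sorted 16 weeks later. The 2 groups were Gata3(g/g), with 2 libraries, and WT, with 2 libraries, and all 4 carry the strain label C57BL/6. Irradiation and transfer were shared by both groups. The labels do not state the age or genotype of the recipients, whether animals were pooled, whether the libraries of a genotype came from separate animals, or how donor cells were told from recipient cells, so the p-values measure the spread between these libraries, which may be technical. Replicates 1 of both genotypes carry 1 sequencing run in the labels and replicates 2 another, called run 1 and run 2 here, so the genotypes were compared within run.

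Cells build cholesterol from acetyl-CoA through mevalonate, isoprenoid diphosphates, squalene and lanosterol. Acetyl-CoA is also carboxylated to malonyl-CoA, from which fatty acid synthase builds saturated fatty acids that desaturases and elongases then modify. Transcription of many of these genes is driven by the sterol regulatory element binding proteins (SREBPs), which the escort protein SCAP carries to the Golgi for activation when sterols are scarce, while INSIG proteins hold the SCAP complex in the endoplasmic reticulum when sterols are plentiful. Proliferating lymphocytes are known to use both pathways to make membrane.

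Library depth ran from 14331705 to 26901913 fragments, so that 3 fragments, the limit a count of 0 allows, stood for 0.112 to 0.209 CPM (counts scaled to library size). These limits cover counting error only. Gata3 itself had 120.0 and 96.1 FPKM (fragments scaled by transcript length and by library size) in the Gata3(g/g)-labelled libraries, against 62.4 and 58.5 FPKM in the WT libraries, a log2 fold change of 0.83 ± 0.146 (SE, n = 2 each, edgeR adjusted p = 0.00165). The targeted gene was thus higher in the libraries labelled hypomorphic, and all directions below rest on the labels; the files do not resolve which part of the transcript this genotype affects. The DN3 markers were present, with Il2ra, which encodes CD25, at 569 and 492 FPKM in Gata3(g/g)-labelled libraries and 277 and 261 FPKM in WT libraries, and Ptcra, which encodes the pre-T cell receptor alpha chain, at 61.1 and 46.5 FPKM against 53.3 and 53.6 FPKM. Of the 11 DN3 markers tested, 2 were higher in the Gata3(g/g)-labelled libraries, beside 3.90% of all tested genes. These were Il2ra and Dtx1, each at a log2 fold change of 0.98 (edgeR adjusted p = 0.00262 and 0.000109). With run in the model, DESeq2 called 2 of the 11 and limma 0. Markers of adipocytes, which also express the fatty acid genes strongly, summed over 7 genes to 0.12 and 0.745 FPKM in Gata3(g/g)-labelled libraries and 0.349 and 1.24 FPKM in WT libraries, with Fabp4 at 0 in every library and none of the 7 reaching the testing level. B cell markers summed over 6 genes to 37.2 and 29.9 FPKM in Gata3(g/g)-labelled libraries and 30.1 and 29.4 FPKM in WT libraries, nearly all of it Cd79b, with Pax5 at or under 0.0274 FPKM. Stromal and epithelial markers summed over 8 genes to 33.7 and 31.8 FPKM in Gata3(g/g)-labelled libraries and 32.6 and 24.5 FPKM in WT libraries; Col1a1 stayed at or under 0.262 FPKM, Epcam ranged from 7.13 to 12.7 FPKM, and Pecam1, the highest, had 25.0 and 21.7 FPKM in Gata3(g/g)-labelled libraries and 19.7 and 16.9 FPKM in WT libraries without passing the test.

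The 31 genes spanned the range from scarce to abundant transcripts. Of the 31, 30 had a mean of at least 1 FPKM over the 4 libraries and were tested, and Scd1 was not. Mean levels of the 30 tested genes ran from 2.11 to 116 FPKM, a 54.8-fold range. Scd2, a stearoyl-CoA desaturase, stood highest, and Elovl5, Acly, Fdps, Hmgcs1 and Fasn followed in that order. The lowest tested levels belonged to enzymes of the squalene-to-cholesterol group, with Hsd17b7 at 1.76 and 2.27 FPKM in Gata3(g/g)-labelled libraries and 2.09 and 2.32 FPKM in WT libraries, and Tm7sf2 at 1.96 and 2.56 FPKM against 1.69 and 2.48 FPKM. Between Elovl5 at 53.6 and 49.3 FPKM in Gata3(g/g)-labelled libraries (57.4 and 51.7 FPKM in WT) and Acly at 36.7 and 39.5 FPKM (40.8 and 41.4 FPKM in WT), the ranges over the libraries did not overlap. Fdps, at 40.4 and 36.4 FPKM in Gata3(g/g)-labelled libraries and 47.2 and 34.1 FPKM in WT libraries, overlapped Acly, so the order of these 2 levels was not resolved.

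**Figure D1:**
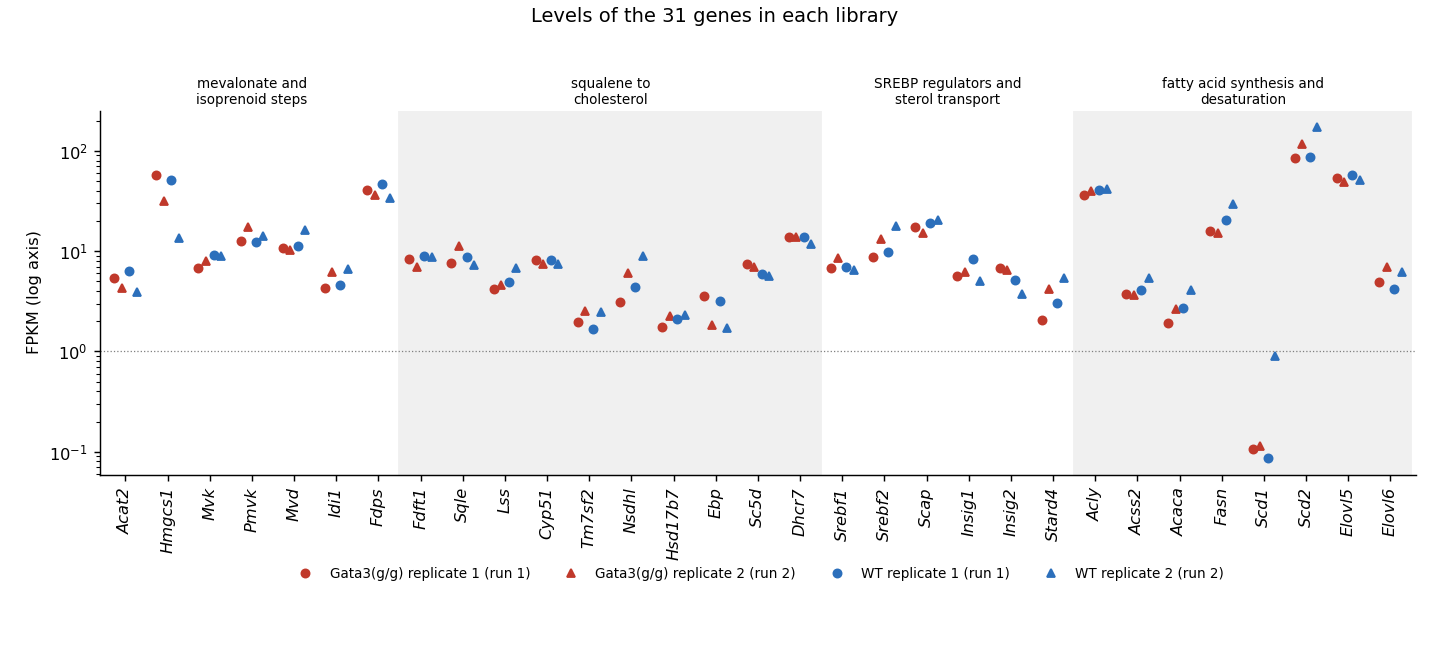
Level of each of the 31 genes in each library, in FPKM on a log axis, grouped by role, with Gata3(g/g) in red and WT in blue, run 1 as circles and run 2 as triangles; the dotted line marks 1 FPKM, the mean level needed for testing. Scd2 lies highest at 85.2 to 173 FPKM and Scd1 lies below the line in every library.

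Between the genotypes, 4 of the 30 tested genes passed the test and 26 did not. Fasn and Acaca, the enzymes that build saturated fatty acids, fell in the Gata3(g/g)-labelled libraries, and Insig2, a retention protein of the SREBP pathway, and Hmgcs1, the cytosolic HMG-CoA synthase at the entry to the mevalonate pathway, rose. The differences were moderate, between 0.636-fold and 1.61-fold, and none of the 30 genes had a log2 fold change beyond 1 in either direction, against 304 of all 10224 tested genes (2.97%). The share of the genes that passed was 13.3%, beside 705 of 10224 genes tested (6.90%), of which 399 were higher (3.90%) and 306 lower (2.99%) in the Gata3(g/g)-labelled libraries. The median log2 fold change of the 30 genes was -0.11, against 0.01 over all tested genes, and their median absolute log2 fold change was 0.21, against 0.18. The test was edgeR's quasi-likelihood F test with run as a block, two-sided, with Benjamini-Hochberg adjustment at 0.05 over all 10224 genes.

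These calls depend on the model. Without the run block the same test called none of the 30 genes and 0 of 10224 genes (0.00%); 393 genes, none of them among the 30, had an unadjusted p under 0.05. The other tools run without it made 88 (DESeq2) and 5 (limma) calls, again with none of the 30 among them. With the block, DESeq2 called 417 genes (4.08%), of the 30 only Fasn, and limma on log2(FPKM + 1) called 18 genes (0.176%) and none of the 30. In the authors' deposited table, which takes no account of run as far as its columns show, Fasn alone of the 30 had a q-value under 0.05, against 428 of 10177 of these genes (4.21%). Each change given below therefore refers to the comparison within run, with 1 residual degree of freedom and a spread estimated largely across genes. Fits with 1 library left out can only be made without the block, so they also take in the run difference, and none of the 4 genes passed in them: without the WT library of run 2 the log2 fold change was -0.36 for Fasn, -0.23 for Acaca and 0.38 for Insig2, and for Acaca it was -0.36 without the Gata3(g/g)-labelled library of run 1 and -0.89 without the WT library of run 1.

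**Figure D2:**
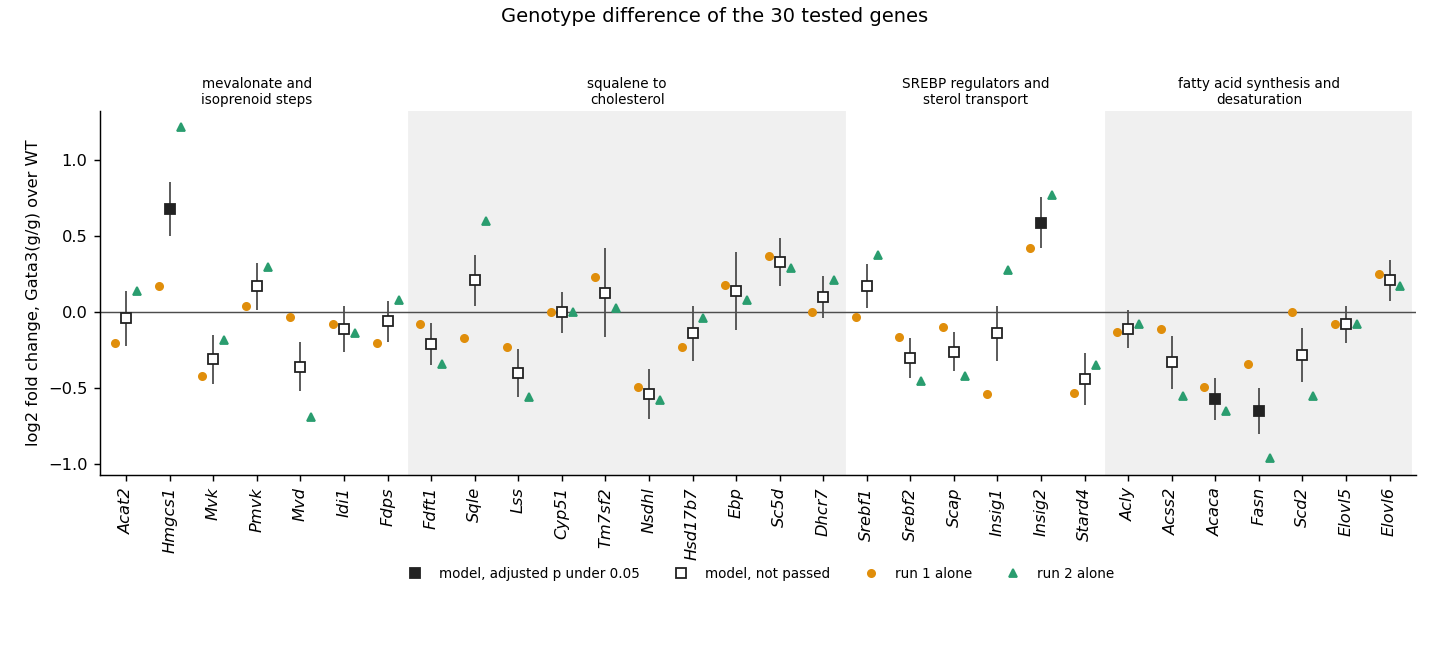
Log2 fold change, Gata3(g/g) over WT, of each tested gene from the model with run as a block (squares, with bars of 1 SE, n = 2 libraries each) and the difference within run 1 (circles) and run 2 (triangles) in log2 CPM; filled squares have an adjusted p under 0.05. Fasn and Acaca lie below 0 in both runs, Insig2 lies above 0 in both, and Hmgcs1 is near 0 in run 1 and at 1.22 in run 2.

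Of the 8 fatty acid synthesis genes 7 were tested. Fasn and Acaca fell in the Gata3(g/g)-labelled libraries and none rose, beside 2.99% and 3.90% of all tested genes, and 5 did not pass. The 7 genes had a median log2 fold change of -0.28, with within-run medians of -0.11 in run 1 and -0.55 in run 2. Of the 7 values 1 lay above 0. Since these are bulk samples, fewer cells of a type and less RNA per cell cannot be told apart here.

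Fasn encodes fatty acid synthase, the multidomain enzyme that makes palmitate (mm10, chr11:120805958-120824547). It had 15.8 and 15.3 FPKM in the Gata3(g/g)-labelled libraries, against 20.3 and 29.7 FPKM in the WT libraries, from 8128 and 5309 against 7842 and 7960 fragments. The genotypes did not overlap: the Gata3(g/g)-labelled libraries lay close together below both WT libraries, of which that of run 2 was the higher. Means were 15.6 ± 0.358 FPKM and 25.0 ± 6.68 FPKM (SD, n = 2 each), and the log2 fold change was -0.65 ± 0.151 (SE), a level 0.636-fold that of WT, with an edgeR adjusted p of 0.0141. The difference was -0.34 in run 1 and -0.96 in run 2 on the log2 CPM scale. DESeq2 with the block gave an adjusted p of 0.0104, limma with the block 0.255, and the authors' deposited table gives a log2 fold change of -0.68 with q = 0.00998.

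Acaca encodes acetyl-CoA carboxylase alpha, which makes the malonyl-CoA that fatty acid synthase uses (mm10, chr11:84195438-84401651). Its level was 1.91 and 2.64 FPKM in the Gata3(g/g)-labelled libraries, against 2.70 and 4.13 FPKM in the WT libraries, from 888 and 830 against 947 and 1002 fragments. Both Gata3(g/g)-labelled libraries lay below both WT libraries, although the higher of the first and the lower of the second were close. The log2 fold change was -0.57 ± 0.138 (SE, n = 2 each), 0.674-fold, with an edgeR adjusted p of 0.0183, and both runs showed it, at -0.49 (run 1) and -0.65 (run 2). The authors' deposited table gives -0.59 with q = 0.0529.

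The stearoyl-CoA desaturases, which place the double bond in newly made saturated fatty acids, differed far more from each other than between genotypes. Scd2 had 85.2 and 118 FPKM in the Gata3(g/g)-labelled libraries and 86.0 and 173 FPKM in the WT libraries. In run 1 the genotypes were level, at 0.00 on the log2 CPM scale, and in run 2 the difference was -0.55; the log2 fold change of -0.28 ± 0.179 (SE, n = 2 each) did not pass (edgeR adjusted p = 0.417). Scd1 had 0.106 and 0.115 FPKM in the Gata3(g/g)-labelled libraries and 0.0866 and 0.907 FPKM in the WT libraries, from 26 and 19 against 16 and 116 fragments. Only the WT library of run 2 stood apart, so that any difference between genotypes in Scd1 rests on that single library; with all detected genes tested, which was done as an alternative, the value was -1.48 ± 0.481 (SE, adjusted p = 0.046, edgeR).

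The other members of this group did not pass. Acly, which splits citrate to acetyl-CoA, and Acss2, which makes acetyl-CoA from acetate, had non-overlapping genotypes with log2 fold changes of -0.11 and -0.33; Acss2 had 3.74 and 3.69 FPKM in Gata3(g/g)-labelled libraries and 4.09 and 5.39 FPKM in WT libraries. Elovl5, an elongase of polyunsaturated fatty acids, was at -0.08 on the log2 scale. Elovl6, the elongase that extends palmitate, was the gene of this group above 0, with 4.90 and 6.95 FPKM in Gata3(g/g)-labelled libraries, 4.15 and 6.15 FPKM in WT libraries and a log2 fold change of 0.21 ± 0.135 (SE).

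Among the regulators, Insig2 rose, beside 3.90% of all tested genes, and the other 5 genes did not pass. The median log2 fold change over the 6 was -0.20. Insig2 (mm10, chr1:121304353-121332580) had 6.84 and 6.46 FPKM in the Gata3(g/g)-labelled libraries, against 5.17 and 3.76 FPKM in the WT libraries, from 818 and 517 against 464 and 233 fragments. Both Gata3(g/g)-labelled libraries lay above both WT libraries. Means were 6.65 ± 0.27 FPKM and 4.46 ± 0.997 FPKM (SD, n = 2 each), and the log2 fold change was 0.59 ± 0.166 (SE), 1.51-fold, with an edgeR adjusted p of 0.0419. Run 1 gave 0.42 and run 2 gave 0.77, and it did not pass in DESeq2 (adjusted p = 0.225) or limma (0.234) with the block.

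Its paralog Insig1, itself a well-known SREBP target, did not move with it. Insig1 had 5.67 and 6.17 FPKM in the Gata3(g/g)-labelled libraries and 8.37 and 5.04 FPKM in the WT libraries. The WT library of run 1 was highest and that of run 2 lowest, so the genotypes overlapped and the within-run differences had opposite signs, -0.54 in run 1 and 0.28 in run 2. The log2 fold change was -0.14 ± 0.181 (SE, n = 2 each, edgeR adjusted p = 0.707). The gap of 0.82 between the runs was, after that of Hmgcs1, the widest among the 30 genes.

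The genes for the transcription factors and their escort gave values on either side of 0. Srebf1, which encodes the factor tied most closely to fatty acid genes, had 6.72 and 8.47 FPKM in the Gata3(g/g)-labelled libraries and 6.97 and 6.45 FPKM in the WT libraries, a log2 fold change of 0.17 ± 0.145 (SE, edgeR adjusted p = 0.545). The run 1 libraries were nearly equal, at -0.03 on the log2 CPM scale, and the run 2 libraries differed by 0.38. Srebf2, whose product acts mainly on sterol genes, had 8.78 and 13.2 FPKM in the Gata3(g/g)-labelled libraries and 9.89 and 18.0 FPKM in the WT libraries. Within each run the Gata3(g/g)-labelled library was the lower, at -0.16 and -0.45 in log2 CPM, but across runs the genotypes overlapped, and the log2 fold change of -0.30 ± 0.132 (SE) did not pass (edgeR adjusted p = 0.194).

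Scap, the escort, had 17.5 and 15.3 FPKM in the Gata3(g/g)-labelled libraries and 18.9 and 20.3 FPKM in the WT libraries. Here the genotypes did not overlap, at a log2 fold change of -0.26 ± 0.128 (SE, n = 2 each, edgeR adjusted p = 0.272). Stard4, a soluble sterol transport protein, had 2.05 and 4.22 FPKM in the Gata3(g/g)-labelled libraries and 3.01 and 5.34 FPKM in the WT libraries, with a log2 fold change of -0.44 ± 0.174 (SE, edgeR adjusted p = 0.146) and values below 0 in both runs. Levels of RNA do not show how much SREBP protein was cleaved, which these data do not measure.

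In the mevalonate and isoprenoid group, 1 of 7 genes rose and none fell, beside 3.90% and 2.99% of all tested genes. The other 6 did not pass, and the group median log2 fold change was -0.06. Hmgcs1 (mm10, chr13:119690462-119708077) had 57.0 and 31.8 FPKM in the Gata3(g/g)-labelled libraries, against 51.2 and 13.6 FPKM in the WT libraries, from 9348 and 3499 against 6310 and 1157 fragments. In both genotypes the run 2 library was the lower, and the genotypes overlapped, since the Gata3(g/g)-labelled library of run 2 lay below the WT library of run 1. The log2 fold change was 0.68 ± 0.181 (SE, n = 2 each), 1.61-fold, with an edgeR adjusted p of 0.0301. That value is a mean of a difference of 0.17 in run 1 and 1.22 in run 2, a gap of 1.04 that was the widest among the 30 genes. Fits with 1 library left out have no block and take in the run difference, which was wide for this gene, so they single out no library: the log2 fold change was -0.19 without the WT library of run 2, -0.01 without the Gata3(g/g)-labelled library of run 1 and 1.68 without the WT library of run 1. DESeq2 and limma with the block gave adjusted p-values of 0.669 and 0.344, and the authors' deposited table gives 0.45 with q = 0.136. The antisense gene Gm48342 covers 12.1% of the exon bases of Hmgcs1 in GENCODE M21, and reads of the strands cannot be told apart where counting without strand was used, which the sources used here do not state.

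None of the next enzymes along this line passed. Mvk, mevalonate kinase, had 6.76 and 8.04 FPKM in the Gata3(g/g)-labelled libraries and 9.20 and 9.03 FPKM in the WT libraries, without overlap (-0.31 ± 0.163, log2 fold change and SE). Mvd, the decarboxylase that yields isopentenyl diphosphate, had 10.8 and 10.2 FPKM in the Gata3(g/g)-labelled libraries and 11.2 and 16.3 FPKM in the WT libraries, with nearly all of its difference in run 2 (-0.69, against -0.03 in run 1). Pmvk, phosphomevalonate kinase, Idi1, the isopentenyl diphosphate isomerase, and Fdps, farnesyl diphosphate synthase, had log2 fold changes of 0.17, -0.11 and -0.06. Acat2, the cytosolic thiolase that feeds acetoacetyl-CoA to HMG-CoA synthase, was at -0.04, or 0.01 with scaling to total fragments, and shares near-identical sequence with Acat3, so the division of its reads is uncertain.

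From squalene to cholesterol, none of the 10 genes passed in edgeR, and their median log2 fold change was 0.05. At an unadjusted p under 0.05 there were 3, and DESeq2 and limma with the block called 0. Nsdhl, a dehydrogenase that helps remove methyl groups from the sterol ring, came nearest, with 3.09 and 6.10 FPKM in the Gata3(g/g)-labelled libraries and 4.39 and 9.04 FPKM in the WT libraries. Its run 2 libraries were the higher ones in both genotypes, the genotypes overlapped, and the log2 fold change was -0.54 ± 0.166 (SE, n = 2 each, edgeR adjusted p = 0.0641), and both runs contributed, at -0.49 (run 1) and -0.58 (run 2). Lss, lanosterol synthase, had 4.16 and 4.65 FPKM in the Gata3(g/g)-labelled libraries and 4.94 and 6.82 FPKM in the WT libraries, a log2 fold change of -0.40 ± 0.156 (SE, edgeR adjusted p = 0.149).

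Sc5d, a sterol desaturase late in the pathway, lay the other way, with 7.52 and 6.93 FPKM in the Gata3(g/g)-labelled libraries and 5.89 and 5.62 FPKM in the WT libraries and no overlap (0.33 ± 0.156, log2 fold change and SE, edgeR adjusted p = 0.237). Sqle, squalene epoxidase, had opposite signs in the runs, -0.17 in run 1 and 0.60 in run 2. Cyp51, the lanosterol demethylase, was level, with 8.12 and 7.45 FPKM in the Gata3(g/g)-labelled libraries and 8.22 and 7.41 FPKM in the WT libraries. The remaining genes were Fdft1, which encodes squalene synthase, the sterol reductases Tm7sf2 and Dhcr7, Hsd17b7, a ketosterol reductase, and Ebp, a sterol isomerase, with log2 fold changes between -0.21 and 0.14. Exons of Fdft1 overlap those of Ctsb on the other strand over 18.3% of their bases, exons of Fdps overlap Gm43738 over 26.7%, exons of Tm7sf2 overlap Vps51 over 12.1%, and exons of Scap overlap another transcript over 13.2%, which leaves their counts less certain.

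Taking the libraries pair by pair, 16 of the 30 genes (53.3%) were lower in the Gata3(g/g)-labelled library in both runs, beside 31.3% of all tested genes, and 7 (23.3%) were higher in both, beside 33.1%. Signs of any size were counted, also over all tested genes. The 16 thus include Cyp51, which was level in both runs, and Mvd, at -0.03 in run 1. In 11 of the 30 (36.7%) the FPKM values of the genotypes did not overlap, beside 29.0% of all tested genes. Of these 11, 9 were lower in the Gata3(g/g)-labelled libraries (Mvk, Mvd, Fdft1, Lss, Scap, Acly, Acss2, Acaca and Fasn) and 2 were higher (Sc5d and Insig2). The larger share of lower values is a description of the list and has no test. Markers of double-positive thymocytes, the stage after DN3, moved with genotype as well: their summed level over 5 genes was 71.2 and 68.3 FPKM in Gata3(g/g)-labelled libraries and 45.8 and 33.7 FPKM in WT libraries, 3 of the 4 tested rose, and Cd4 stayed at or under 0.492 FPKM in every library. Macrophage and dendritic markers summed over 8 genes to 22.8 and 17.5 FPKM in Gata3(g/g)-labelled libraries and 13.3 and 10.6 FPKM in WT libraries, with Csf1r at or under 0.152 FPKM throughout. Most of that sum was Lyz2, which rose, while Cd68, the other tested gene of the list, had a log2 fold change of -0.43 and did not pass. Of 7 tested immediate-early genes, which are known to respond to cell handling, 4 passed, beside 6.90% of all tested genes. Junb, Egr1 and Fosb fell, at log2 fold changes of -1.06, -0.73 and -0.66, and Jun rose, at 0.76. The Jun difference was 0.26 in run 1 and 1.29 in run 2. DESeq2 with the block called 3 of these genes but not Jun (adjusted p = 0.601), and limma with the block called 0 immediate-early genes. Their part in the lipid gene differences was not tested.

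**Figure D3:**
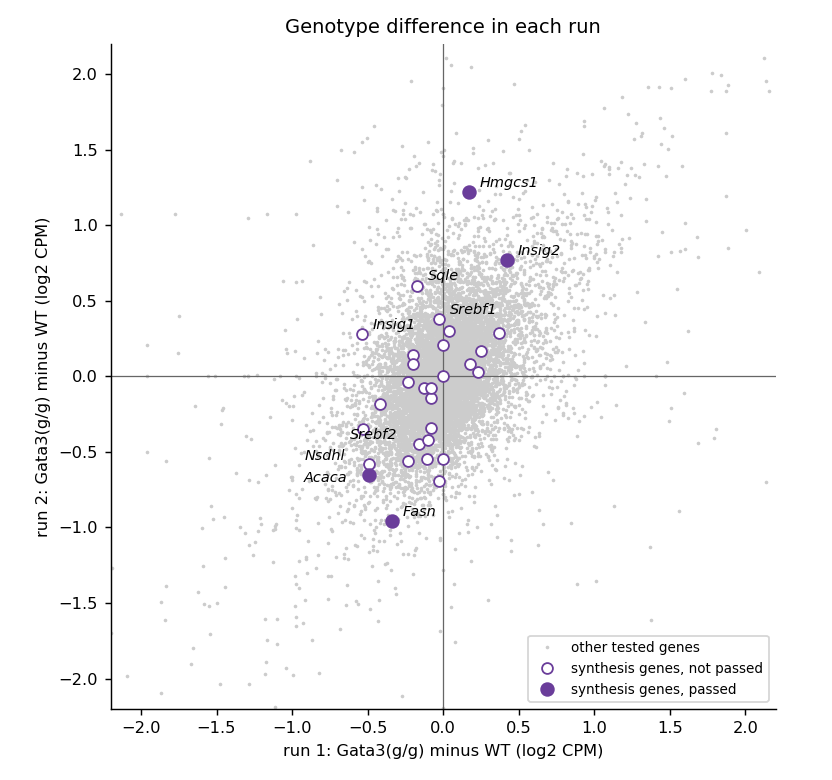
Genotype difference, Gata3(g/g) minus WT, in run 1 (x axis) and run 2 (y axis), in log2 CPM, for the synthesis genes (purple, filled where the model's adjusted p was under 0.05) and the other tested genes (grey); axes end at 2.2, and a few grey points lie outside. Fasn (-0.34 and -0.96) and Acaca (-0.49 and -0.65) lie in the lower left, Insig2 (0.42 and 0.77) in the upper right, and Insig1 (-0.54 and 0.28) has opposite signs.

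The promoter sequences of the genes that passed are given because SREBPs and GATA factors bind short, known DNA words, and the windows show which of these words stand near the start sites. RefSeq promoter windows (GRCm38.p6, 250 bases before to 50 after the start, 300 bases) were matched for 25 of the 31 genes, with 33 windows in all. In the sequences below, written from 5′ to 3′ along the gene, capitals mark matches on either strand to TCACNCCAC (sterol regulatory element), CCAAT (the CCAAT box bound by NF-Y, a common partner of SREBP, read as ATTGG on the other strand), CACGTG (E-box) or the GATA words AGATAA or AGATAG, and TGATAA or TGATAG.
Hmgcs1, chr13:119690101-119690400, plus strand: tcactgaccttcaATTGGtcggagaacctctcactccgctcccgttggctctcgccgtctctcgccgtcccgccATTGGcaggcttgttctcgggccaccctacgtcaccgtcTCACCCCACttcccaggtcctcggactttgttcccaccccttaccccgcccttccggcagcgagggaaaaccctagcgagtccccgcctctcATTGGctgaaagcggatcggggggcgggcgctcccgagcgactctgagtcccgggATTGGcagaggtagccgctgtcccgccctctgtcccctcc
Fasn, chr11:120824498-120824797, minus strand: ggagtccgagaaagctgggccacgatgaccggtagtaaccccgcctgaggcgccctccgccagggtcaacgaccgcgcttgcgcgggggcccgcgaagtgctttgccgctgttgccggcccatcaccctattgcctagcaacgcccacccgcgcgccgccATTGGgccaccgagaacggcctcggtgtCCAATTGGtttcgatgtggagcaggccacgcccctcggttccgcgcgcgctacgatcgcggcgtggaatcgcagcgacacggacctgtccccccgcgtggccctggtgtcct
Insig2, first start site, chr1:121332540-121332839, minus strand: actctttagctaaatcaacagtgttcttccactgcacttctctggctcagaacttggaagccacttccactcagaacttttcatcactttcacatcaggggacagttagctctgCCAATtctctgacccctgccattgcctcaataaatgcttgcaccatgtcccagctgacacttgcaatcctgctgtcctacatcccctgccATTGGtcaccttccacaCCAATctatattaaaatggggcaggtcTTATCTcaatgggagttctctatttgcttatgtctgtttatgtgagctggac
Insig2, second start site, chr1:121327975-121328274, minus strand: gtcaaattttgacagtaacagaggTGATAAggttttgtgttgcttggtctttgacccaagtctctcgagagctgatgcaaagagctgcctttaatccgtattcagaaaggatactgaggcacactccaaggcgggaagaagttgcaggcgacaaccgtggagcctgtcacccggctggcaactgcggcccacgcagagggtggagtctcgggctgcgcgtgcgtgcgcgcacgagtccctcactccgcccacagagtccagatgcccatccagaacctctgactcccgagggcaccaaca
The Hmgcs1 window holds 1 sterol regulatory element match, TCACCCCAC at positions -137 to -129 from the start, and CCAAT boxes at 4 positions. The Fasn window holds CCAAT boxes at 3 positions, of which the last 2, on opposite strands, share bases. The first Insig2 window holds CCAAT boxes at 3 positions and a GATA word on the minus strand across the start, and the second holds a single GATA word, TGATAA, at -226 to -221. The Acaca window and the other Insig2 window have no match.

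Across the 33 windows, the sterol regulatory element letters stood in 1 (3.03%), against 1.24% of all 32851 windows and 1.13% of those of tested genes. CCAAT boxes were in 22 windows (66.7%) of 21 genes, against 37.4% of all windows and 38.6% of those of tested genes. The E-box stood in 7 windows (21.2%), against 7.15% and 10.6%, and GATA words stood in 5 windows (15.2%) of Dhcr7, Hsd17b7 and Insig2, against 29.8% and 18.0%. Among the genes that passed, CCAAT boxes were in the windows of Fasn, which fell, and of Insig2 and Hmgcs1, which rose. Letters that match are not shown to be bound, and several windows belong to the same gene.

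Between the runs, the synthesis genes differed about as often as other genes. The run difference passed for 10 of the 30 (33.3%), beside 34.8% of all tested genes, with 7 higher in run 2 (17.5% of all genes were) and 3 lower (17.3%). All 10 had the same sign in both genotypes. The run term was fitted over both genotypes, which favours such agreement. For 16 of the 30 genes the run difference was larger in absolute value than the genotype difference. The median absolute log2 fold change of the 30 genes was 0.28 between runs and 0.21 between genotypes. Over all tested genes these medians were 0.31 and 0.18. Whatever was handled together with a run cannot be told apart from the sequencing itself.

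Hmgcs1 had the widest run difference, -1.35 ± 0.183 (log2 fold change of run 2 over run 1 and SE, edgeR adjusted p = 4.53e-05), at -0.83 in the Gata3(g/g)-labelled libraries and -1.88 in the WT libraries. Acat2, just upstream of it, and Ebp were also lower in run 2, by log2 fold changes of -0.48 and -0.92. The Acat2 call was near the threshold (edgeR adjusted p = 0.0495). Its near-identical copy Acat3 was higher in run 2, with 24.7 and 38.6 FPKM in the Gata3(g/g)-labelled libraries and 30.2 and 33.5 FPKM in the WT libraries. The division of reads between these 2 genes is uncertain. The synthesis genes that passed as higher in run 2 came from all 4 role groups and were Nsdhl at 1.03, Stard4 at 0.96, Scd2 at 0.77, Srebf2 at 0.75, Acaca at 0.57, Elovl6 at 0.56 and Idi1 at 0.55. Neighbouring steps thus went opposite ways between runs, with the gene for HMG-CoA synthase lower and the gene for isopentenyl diphosphate isomerase higher in run 2. Other gene lists moved with run too: erythroid markers summed over 7 genes to 2.2 and 593 FPKM in Gata3(g/g)-labelled libraries and 1.21 and 464 FPKM in WT libraries, and immediate-early genes, over 8 genes, to 464 and 53.4 FPKM against 661 and 42.3 FPKM. Proliferation genes, whose sums over 10 genes were 807 and 793 FPKM in Gata3(g/g)-labelled libraries and 879 and 739 FPKM in WT libraries, had 7 of 10 called between runs, beside 34.8% of all tested genes. None was called between genotypes, beside 6.90%. The run calls went both ways: Mki67, Ccnb1 and Ccna2 were higher in run 2, at log2 fold changes of 0.86, 0.51 and 0.48. Mcm3, Mcm2, Pcna and Mcm5 were lower, at -0.93, -0.68, -0.50 and -0.39. The part of these lists in the run differences of the lipid genes was not tested.

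**Figure D4:**
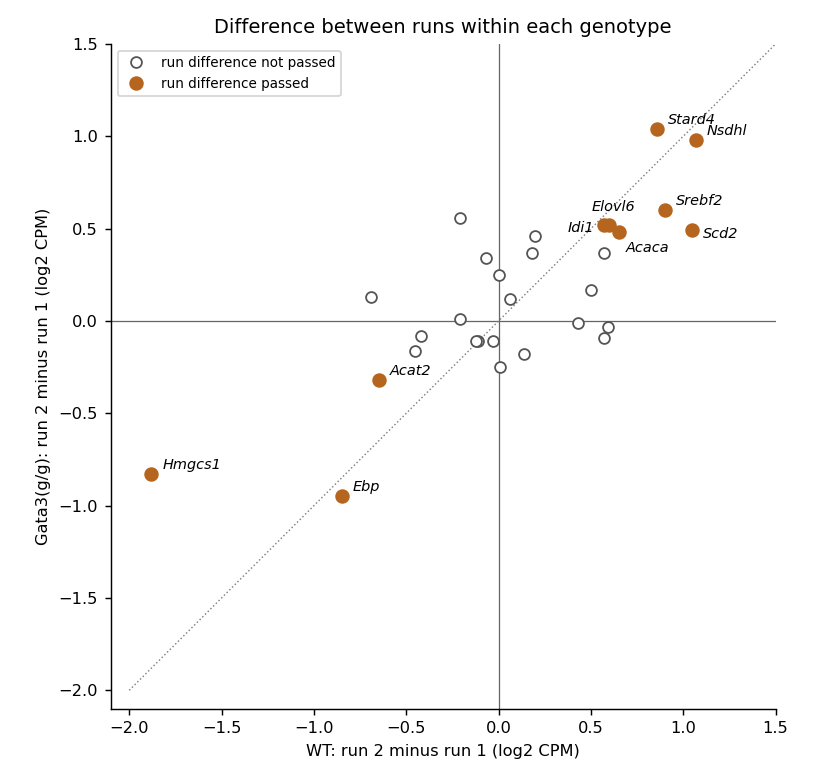
Difference between the runs, run 2 minus run 1 in log2 CPM, in the WT libraries (x axis) and the Gata3(g/g)-labelled libraries (y axis) for the 30 tested genes; filled points passed the test of the run difference and the dotted line marks equal differences. The 7 filled points at the upper right were higher in run 2 in both genotypes, and Hmgcs1 (-1.88 and -0.83), Acat2 and Ebp were lower in both.

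Genes of 6 neighbouring lipid lists were examined in the same way. Of 17 further genes of sterol synthesis and the SREBP pathway 16 were tested and none passed, with a median log2 fold change of -0.02. The 13 genes of the isoprenoid branch and protein prenylation, all tested, gave no call and a median of -0.01, and neither did the 11 tested of 13 genes of glycerolipid synthesis and lipid droplets, at -0.03. At an unadjusted p under 0.05 edgeR had 2, 1 and 2 genes in these lists; DESeq2 and limma with the block called 0, and edgeR with scaling to total fragments called 1, in the glycerolipid list.

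In the list of oxysterol response and cholesterol efflux, 1 of 11 tested genes (15 listed) rose and none fell, beside 3.90% and 2.99% of all tested genes, with a median of 0.05. The gene that rose was Mylip, an E3 ubiquitin ligase that liver X receptors induce when sterols accumulate. It had 9.45 and 12.2 FPKM in the Gata3(g/g)-labelled libraries, against 7.03 and 7.37 FPKM in the WT libraries. Both Gata3(g/g)-labelled libraries lay above both WT libraries, and the log2 fold change was 0.58 ± 0.141 (SE, n = 2 each, edgeR adjusted p = 0.0186), at 0.44 in run 1 and 0.72 in run 2. With the block it did not pass in DESeq2 (adjusted p = 0.09) or limma (0.221). In the same list Abcg1 and Lpcat3 were at -0.04 and 0.12 and did not pass. Abca1, below the testing level, had 0.85 and 1.47 FPKM in Gata3(g/g)-labelled libraries and 0.484 and 0.546 FPKM in WT libraries. With scaling to total fragments, or with no filter on low levels, edgeR called 2 genes of this list.

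In the list of other genes for fatty acid synthesis, elongation and desaturation, 2 of 14 tested genes (20 listed) rose and none fell, beside the same 3.90% and 2.99%, with a median of 0.05. Fads3, a member of the fatty acid desaturase family that acts on sphingoid bases, had 10.1 and 8.81 FPKM in the Gata3(g/g)-labelled libraries, against 3.66 and 3.49 FPKM in the WT libraries. The genotypes lay far apart and each was tight, with a log2 fold change of 1.40 ± 0.142 (SE, n = 2 each), 2.65-fold, and an edgeR adjusted p of 7.31e-06, at 1.47 in run 1 and 1.32 in run 2. Its adjusted p was 1.16e-08 in DESeq2 and 0.0603 in limma with the block, and 0.321 in edgeR and 0.000232 in DESeq2 without it. Acsl4, an acyl-CoA synthetase that favours arachidonate, had 9.82 and 11.9 FPKM in the Gata3(g/g)-labelled libraries and 7.49 and 8.34 FPKM in the WT libraries, without overlap, and a log2 fold change of 0.45 ± 0.131 (SE, edgeR adjusted p = 0.0477). That call was lost in DESeq2 (adjusted p = 0.156) and limma (0.239) with the block, and in edgeR with no filter on low levels (0.0541) or with a minimum mean of 5 FPKM (0.0579).

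Fatty acid oxidation gave 1 gene higher and 1 lower among 18 tested (19 listed), beside 3.90% and 2.99% of all tested genes, with a median of -0.10. Hadh, a mitochondrial hydroxyacyl-CoA dehydrogenase, had 20.8 and 23.0 FPKM in the Gata3(g/g)-labelled libraries, against 26.4 and 35.7 FPKM in the WT libraries. Its genotypes did not overlap, and it fell by 0.48 ± 0.139 on the log2 scale (SE, n = 2 each, edgeR adjusted p = 0.0462), a call lost with scaling to total fragments (adjusted p = 0.0742). Acadm, the medium-chain acyl-CoA dehydrogenase, had 8.0 and 6.12 FPKM in the Gata3(g/g)-labelled libraries, against 6.38 and 2.62 FPKM in the WT libraries. As with Hmgcs1, the WT library of run 2 was the low one and the genotypes overlapped; the log2 fold change was 0.74 ± 0.209 (SE, edgeR adjusted p = 0.0411), made of 0.35 (run 1) and 1.20 (run 2). DESeq2 and limma with the block called neither Acadm (adjusted p = 0.159 and 0.287) nor Hadh (0.142 and 0.251), and neither passed in edgeR with a minimum mean of 5 FPKM (0.0669 and 0.0769). Fits with 1 library left out, again without the block and with the run difference in them, moved several of these 5 values: leaving out the WT library of run 2 gave 0.17 for Acadm and -0.25 for Hadh, leaving out the WT library of run 1 gave 1.41 for Acadm and -0.73 for Hadh, leaving out the Gata3(g/g)-labelled library of run 1 gave 0.45 for Acadm, and leaving out that of run 2 gave 0.29 for Acsl4.

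**Figure D5:**
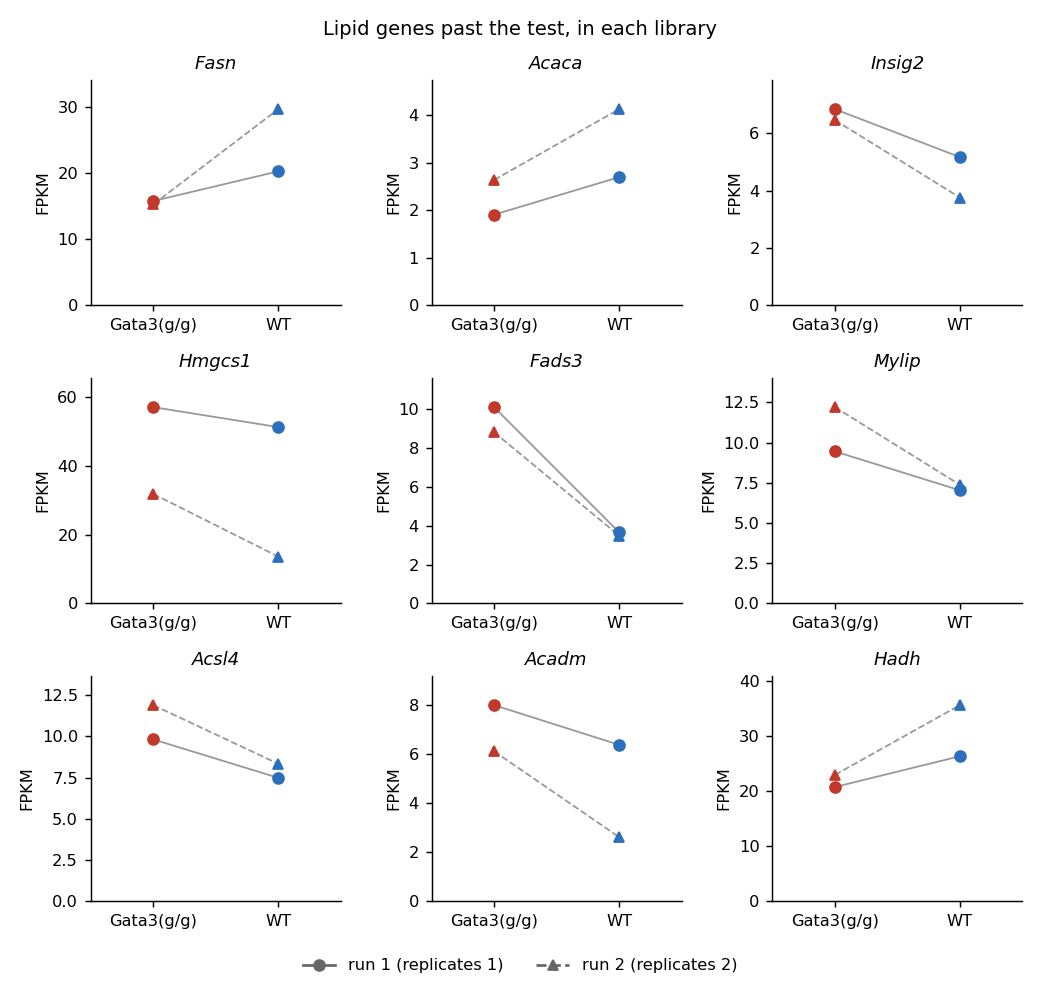
FPKM in each library of the 4 synthesis genes and the 5 genes of neighbouring lipid lists whose adjusted p was under 0.05, with Gata3(g/g) left and WT right and lines joining the libraries of 1 run. Fasn, Acaca and Hadh slope up toward WT in both runs; Hmgcs1 and Acadm slope down steeply in run 2, while Fads3 is about equally high in both Gata3(g/g)-labelled libraries.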

How the data were processed

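RNA of 4 libraries of sorted DN3 thymocytes was sequenced. Per the submitters' processing notes, the tools were TopHat2 2.0.8b, Cuffdiff 2.1.1 and Bowtie2 2.1.0, on the mouse build mm10; neither annotation nor strand setting is given in the sources used here. Values deposited by the authors are, per the file headers, unscaled estimated counts and FPKM in every library. The authors' deposited comparison table gives q-values and p-values beside each log2 fold change. Estimation at 3 of the 23285 genes had been stopped for depth, and these were dropped, while 5 values flagged as failed were kept. Estimated counts were whole to within 0.01 for 97.7% to 98.9% of genes per library and were rounded.

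The 10224 genes averaging 1 FPKM or more were tested with edgeR 4.0.16 (R 4.3.3): trimmed mean of M values scaling (factors 0.981 to 1.02), genotype plus run, quasi-likelihood F test, 1 residual degree of freedom, against 2 without run. The run block follows the labels' sequence identifiers; across genes, run differences in the genotypes had a Pearson correlation of 0.754. DESeq2 1.42.0 and limma 3.58.1 (pseudocount 1 or 0.1) were alternatives. The SE is the unshrunken log2 fold change divided by the square root of F; printed log2 fold changes are shrunken. Within-run values are log2 CPM with a prior count of 2. Exon overlaps were taken from GENCODE M21. The procedure was tested on simulated data.

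The genes and lists were chosen with earlier results of these data known. Named with all libraries were genes that passed, SREBP regulators, both Scd genes, the 2 genes with the widest gap between runs and, per neighbouring list, up to 3 genes that passed; further values are given to complete the role groups.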

Additional observations from a re-analysis of the deposited data

How the results depend on the processing

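The replicate block, that is the run, decides the calls: without it edgeR called 0 genes (705 with it), 0 of the 30 synthesis genes (4 with it) and 0 of the 5 genes of neighbouring lists, although none of these named genes changed sign. With the block, DESeq2 called 417 genes, 1 synthesis gene and 1 neighbouring gene. In the same order, limma called 18, 0 and 0 with a pseudocount of 1 and 42, 0 and 1 with 0.1. A minimum mean of 5 FPKM left 348, 1 and 2, and Acaca was below that minimum and so not tested there. Chosen after seeing the data, DESeq2 without the block called 88, 0 and 1 and limma without it 5, 0 and 0. Leaving out 1 library, possible only without the block, gave 1 to 11 genes, with 0 synthesis and 0 neighbouring genes in each fit. With all detected genes tested, 988 genes and 5 synthesis genes passed, the fifth being Scd1. Scaling to total fragments called 695 genes, 478 higher and 217 lower (68.8% higher, 56.6% in the main test), and brought the synthesis median to -0.06 (0.06 over all genes); that median was -0.06 in run 2 alone and -0.16 to -0.07 with 1 library left out. The run difference had 3560 genes, against 2263 in DESeq2 and 1451 and 1745 in limma (pseudocounts 1 and 0.1). It had 10 synthesis genes, against 5 in limma with a pseudocount of 1 and 6 at 5 FPKM. Of these 10, Acat2, Ebp, Stard4 and Acaca were below 5 FPKM and so were not tested at that minimum. These run alternatives were also chosen after seeing the data.

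Log2 fold changes turned sign for Acat2 (0.01) and Cyp51 (0.05) with total-fragment scaling and for Cyp51 (0.02) at 5 FPKM. With 1 library left out, sign changed within these ranges: Acat2 -0.35 to 0.29, Hmgcs1 -0.19 to 1.68, Pmvk -0.07 to 0.40, Idi1 -0.40 to 0.20, Fdps -0.28 to 0.15, Sqle -0.07 to 0.49, Cyp51 -0.06 to 0.05, Tm7sf2 -0.16 to 0.43, Nsdhl -1.12 to 0.08, Hsd17b7 -0.33 to 0.05, Ebp -0.42 to 0.64, Dhcr7 -0.00 to 0.20, Srebf2 -0.73 to 0.17, Insig1 -0.48 to 0.21, Stard4 -1.03 to 0.07, Scd2 -0.79 to 0.27 and Elovl6 -0.08 to 0.53. Fasn stayed between -0.96 and -0.36, Acaca between -0.89 and -0.23 and Insig2 between 0.38 and 0.80, none past the threshold. The cause of these changes was not tested; without the block the run difference enters the spread and, with 1 library left out, the fold change too, and the lone library of a genotype is assumed to vary like the other. With 2 libraries per genotype, the SE of the synthesis genes, 0.123 to 0.292, limits what could be seen.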
